A study of Mus musculus with 108 samples.

Results

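The cohesin genes examined here were Smc1b, Smc3, Stag3, Rec8, Rad21 and Rad21l, which encode subunits of the cohesin ring, and Nipbl, Pds5a, Pds5b and Wapl, which encode proteins that load, hold or release it. They were chosen by name through their Ensembl mouse IDs, with no measured value in the rule but with earlier results of these data known. They made up 10 of the 55573 gene IDs in the count files. RNA was measured in single mouse oocytes taken either from females in which Exosc10 was knocked out in oocytes (cKO) or from control females. Exosc10 encodes an RNA-degrading subunit of the exosome in the nucleus. The strain, the age, the Cre line and the alleles carried by the controls are not given in the sources used here. In the polyA libraries, made from RNA captured on oligo(dT) beads, 15 cKO oocytes of 2 females and 7 control oocytes of 2 females were at the GV stage (germinal vesicle, arrested in meiotic prophase). At GV3h, after 3 hours of culture in M2 medium, there were 11 cKO oocytes of 3 females and 8 control oocytes of 3 females. Eggs at MII (arrested in the second meiotic metaphase, taken from the oviduct) numbered 15 in cKO and 8 in control, each from 3 females. In the RiboMinus libraries, reverse transcribed from random hexamers without selection of poly(A), there were 7 cKO oocytes of 2 females and 8 control oocytes of 2 females at GV. RiboMinus MII held 4 cKO eggs of 2 females and 3 control eggs that all came from 1 female, V1145. Each female gave oocytes of 1 stage for 1 library type, so differences between stages or genotypes are also differences between females, and p-values measure the spread between oocytes, some of which share a mother.

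Cohesin holds sister chromatids together. A ring of an SMC1-type subunit and SMC3 is closed by a kleisin and bound by a STAG subunit. Meiotic cells build rings from SMC1β, STAG3 and the kleisins REC8 or RAD21L in place of the somatic SMC1α, STAG1 or STAG2 and RAD21. In the mammalian oocyte these rings are loaded in the fetal ovary and must last through the long prophase arrest. REC8 on chromosome arms is cleaved by separase at the first division, while shugoshin protects the rings near centromeres until the second.

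Promoter sequences are shown for 4 members: Stag3 and Pds5a, whose levels differed most often between genotypes, Rad21l, and Smc1b, which together with Stag3 is known as a germline gene silenced in somatic cells by the repressor E2F6. They are RefSeq windows of 300 bases around RefSeq's gene start (GRCm38.p6, 5′ to 3′ along the gene's strand), and 8 of the 10 members had one. That start can differ from the GENCODE gene start given with each member's values: the Stag3 window lies wholly downstream of the latter. Capitals mark the E2F core TCCCGC on either strand.
Stag3 (chr5:138280259-138280558, plus strand): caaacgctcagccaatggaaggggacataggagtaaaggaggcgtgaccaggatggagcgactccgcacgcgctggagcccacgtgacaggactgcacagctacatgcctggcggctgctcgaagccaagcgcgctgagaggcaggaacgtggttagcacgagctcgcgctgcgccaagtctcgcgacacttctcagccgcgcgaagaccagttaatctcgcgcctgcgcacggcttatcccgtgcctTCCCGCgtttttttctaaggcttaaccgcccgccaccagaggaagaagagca
Smc1b (chr15:85131908-85132207, minus strand): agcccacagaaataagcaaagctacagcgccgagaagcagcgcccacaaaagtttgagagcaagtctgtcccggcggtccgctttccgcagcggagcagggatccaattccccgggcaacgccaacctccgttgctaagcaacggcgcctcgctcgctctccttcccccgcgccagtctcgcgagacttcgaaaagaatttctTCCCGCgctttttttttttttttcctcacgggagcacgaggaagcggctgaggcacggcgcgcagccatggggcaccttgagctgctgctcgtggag
Pds5a (chr5:65698187-65698486, minus strand): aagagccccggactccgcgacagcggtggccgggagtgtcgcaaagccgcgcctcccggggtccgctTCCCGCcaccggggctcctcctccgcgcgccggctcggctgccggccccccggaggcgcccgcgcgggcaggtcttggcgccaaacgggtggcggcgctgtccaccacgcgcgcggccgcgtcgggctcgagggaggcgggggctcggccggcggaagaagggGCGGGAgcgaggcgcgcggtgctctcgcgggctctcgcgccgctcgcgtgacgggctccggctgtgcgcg
Rad21l (chr2:151668484-151668783, minus strand): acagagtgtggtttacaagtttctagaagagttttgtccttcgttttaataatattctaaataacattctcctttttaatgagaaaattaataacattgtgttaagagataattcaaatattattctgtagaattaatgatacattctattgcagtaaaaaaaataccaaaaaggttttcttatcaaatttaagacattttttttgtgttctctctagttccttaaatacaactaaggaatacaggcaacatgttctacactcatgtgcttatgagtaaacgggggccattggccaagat
The core was found in 6 of the 8 windows, those of Rec8, Smc1b, Smc3, Stag3, Pds5a and Pds5b, and in 20% of all 32851 promoter windows of this length. The windows of Rad21l and Wapl did not contain these letters. Base composition set Pds5a and Rad21l apart among the 4 shown: G and C made up 80.3% of the Pds5a window, 61.3% of that of Stag3, 60.0% of that of Smc1b and 29.0% of that of Rad21l. A match is a string of letters in a window, and binding was not measured.

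Gene counts summed to between 4638718 and 8735914 per polyA library and between 12319658 and 62675760 per RiboMinus library. Exosc10 matched the labels in every library: its highest level in a cKO oocyte was 8.29 CPM (counts scaled to a common library size with TMM factors) and its lowest in a control oocyte was 43.0 CPM. All 12 oocyte markers had counts in every group, with summed levels of 21133 to 33914 CPM in the polyA libraries. In polyA MII eggs this sum was 27549 to 33914 CPM in cKO and 23474 to 27987 CPM in control. In RiboMinus GV oocytes it was 8650 to 15767 CPM in cKO (median 14206) and 7970 to 12619 CPM in control (median 10056), with Zp3, Ddx4, Bmp15, Zp2 and Padi6 called higher in cKO and Oosp1 lower. In RiboMinus MII eggs it was 8936 to 13121 CPM in cKO and 13572 to 15010 CPM in control, groups that did not overlap. Its part in the results at RiboMinus GV and at MII was not tested. The 11 granulosa and cumulus markers summed to 67.8 to 173 CPM in the polyA libraries and 68.2 to 198 CPM in the RiboMinus libraries. Of these, 4 (Amh, Foxl2, Ptx3 and Tnfaip6) had 0 counts in all GV3h controls and all RiboMinus MII controls. In cKO only Ptx3 had 0 counts throughout at GV3h, and only Ptx3 and Tnfaip6 at RiboMinus MII. Between genotypes Kitl and Fshr were called higher in cKO at polyA GV and Nr5a2 at GV3h. Cyp19a1 was called lower in cKO at GV3h and RiboMinus GV, and Nr5a2 at RiboMinus MII. At RiboMinus MII the granulosa sum was 152 to 169 CPM in the 3 controls and 68.2 to 107 CPM in the 4 cKO eggs, and its part there was not tested. Between stages it was 81.2 to 102 CPM at GV and 103 to 173 CPM at MII in polyA controls. In polyA cKO it was 69.2 to 100 CPM at GV and 86.7 to 158 CPM at MII. Its part in the stage changes was not tested. The 3 blood markers stayed at or below 1.13 CPM in sum except in RiboMinus MII cKO eggs, where the sum reached 13.8 CPM. Every level below is a share of the counts of its own library, so the amount of RNA in an oocyte does not enter the values.

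Rec8 (ENSMUSG00000002324, mm10 chr14:55618037-55625395, plus strand), the meiotic kleisin of chromosome arms and centromeres, was listed at 0 counts in 85 of the 86 libraries. The exception was a RiboMinus GV cKO oocyte, V1131_4, with 1 count. A count of 0 in one library allowed up to 0.343 to 0.647 CPM in the polyA libraries and 0.0479 to 0.244 CPM in the RiboMinus libraries, taking 3 counts as the limit and covering counting error only. The gene has no annotated exon shared with another gene, and none of its 3074 stretches of 50 bases occurs in another annotated transcript (GENCODE M21). The annotation the authors counted with is not given in the sources used here, so the zeros are reported as listed values and not as absence of Rec8 RNA, and Rec8 entered no test.

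The other 9 members had counts in nearly all libraries and spanned a wide range of levels. Per kilobase of exon, polyA GV control oocytes held 91.0 ± 9.62 CPM of Wapl (SD, n = 7 oocytes, as for the next values), 46.0 ± 4.77 of Smc3, 29.0 ± 3.52 of Nipbl and 17.5 ± 2.88 of Rad21. Lower on the same per-kilobase scale stood Smc1b at 5.04 ± 0.820, Pds5b at 3.85 ± 0.679, Rad21l at 1.16 ± 0.402, Stag3 at 1.12 ± 0.393 and Pds5a at 0.863 ± 0.286. The ring release factor was thus the most abundant member per length and the STAG subunit of meiotic rings one of the least. Neighbours whose mean ± SD ranges overlapped in this order were Smc1b with Pds5b, Rad21l with Stag3, and Stag3 with Pds5a. In RiboMinus GV control oocytes the same 4 genes led per kilobase, Wapl at 115 ± 16.7, Smc3 at 75.8 ± 11.7, Rad21 at 62.3 ± 4.09 and Nipbl at 52.3 ± 7.47 CPM (SD, n = 8), with Stag3 last at 0.959 ± 0.450. Among the kleisins, Rad21 exceeded Rad21l in every group mean per kilobase, at 17.5 against 1.16 CPM in polyA GV controls and 62.3 against 3.35 CPM in RiboMinus GV controls. The levels of the 2 library types come from different females and protocols and were not tested against each other.

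**Figure D1:**
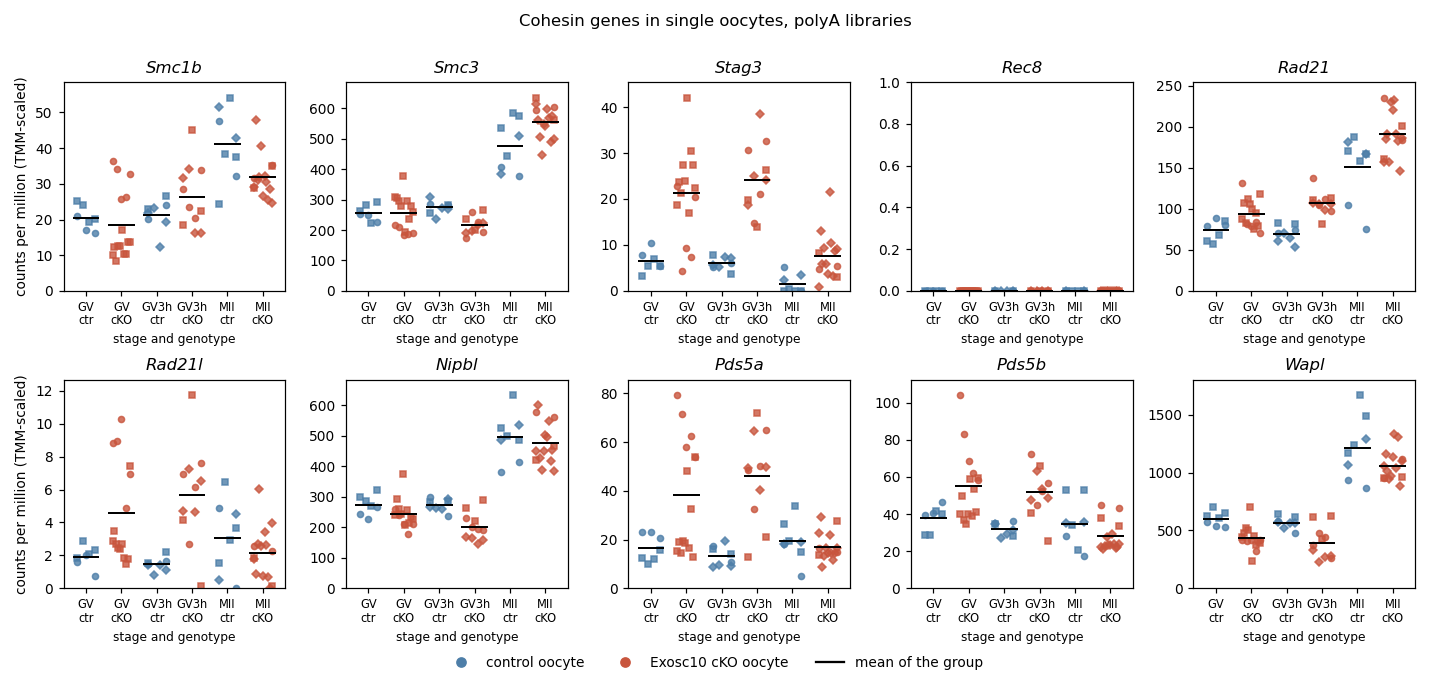
CPM (vertical axis, TMM-scaled, linear from 0) of the 10 cohesin genes in each polyA oocyte, by stage and genotype, with marker shapes for the females of a group and a bar at the group mean. Stag3 stood higher in cKO than in control at each stage, Smc3, Rad21, Nipbl and Wapl stood higher at MII than at GV in both genotypes, and Rec8 was at 0 throughout.

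The first question was which cohesin genes differed between Exosc10 cKO and control oocytes of the same stage. After 3 hours of culture, where 3 females of each genotype were compared, Stag3, Pds5a, Rad21l, Pds5b and Rad21 were higher in cKO and Nipbl, Wapl and Smc3 were lower. That is 8 of 9 members tested, against 55.5% of 13622 genes called in this comparison (29.4% higher and 26.1% lower). At polyA GV, 5 members were higher (the same 5 by name) and Wapl was lower, 6 of 9 against 40.4% of 14606 genes (22% higher and 18.5% lower). At polyA MII, Stag3 was higher and Smc1b and Wapl were lower, 3 of 9 against 37.6% of 12564 genes (19% higher and 18.6% lower). In RiboMinus GV oocytes Stag3, Pds5a and Rad21 were higher and Nipbl was lower, 4 of 9 against 37.6% of 15347 genes (21.2% higher and 16.5% lower). In RiboMinus MII eggs Stag3 and Pds5a were higher and Smc1b was lower, 3 of 9 against 23.7% of 16675 genes (13.9% higher and 9.78% lower). Calls were made with edgeR's quasi-likelihood F test at a Benjamini-Hochberg adjusted p under 0.05 over all genes tested, and with 9 genes none of these shares was read as particular to cohesin. The median log2 change of the members was 0.32 at polyA GV, 0.60 at GV3h, −0.22 at polyA MII, −0.03 at RiboMinus GV and 0.42 at RiboMinus MII, beside 0.06, 0.03, 0.04, 0.00085 and 0.13 over all genes.

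These counts depended on how females were treated. With counts summed per female, 7 of the 8 members called at GV3h were still called, and at polyA GV, polyA MII and RiboMinus GV edgeR called 0 members, with an unadjusted p under 0.05 for 2, 1 and 2 of 9, while DESeq2 on oocytes called 6, 3 and 4. Over all genes the calls on female sums were 6681 of 16844 at GV3h, 1 of 18004 at polyA GV, 2522 of 13813 at polyA MII and 3 of 20094 at RiboMinus GV, so in both GV comparisons nearly every call over the genome ended. An unadjusted p under 0.05 on female sums was found for 3446 genes at polyA GV, 4544 at polyA MII and 4859 at RiboMinus GV. With female as a random block in limma-voom, 0 members were called at polyA GV and 0 at RiboMinus GV (2 and 5 of 9 at an unadjusted p under 0.05), where 1379 of 14606 and 2725 of 15347 genes were called. In these fits 3840 and 5658 genes had an unadjusted p under 0.05. At RiboMinus MII the controls come from 1 female, so summing leaves 1 control sample with no spread of its own. Summed values where that group enters are no check of a call.

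**Figure D2:**
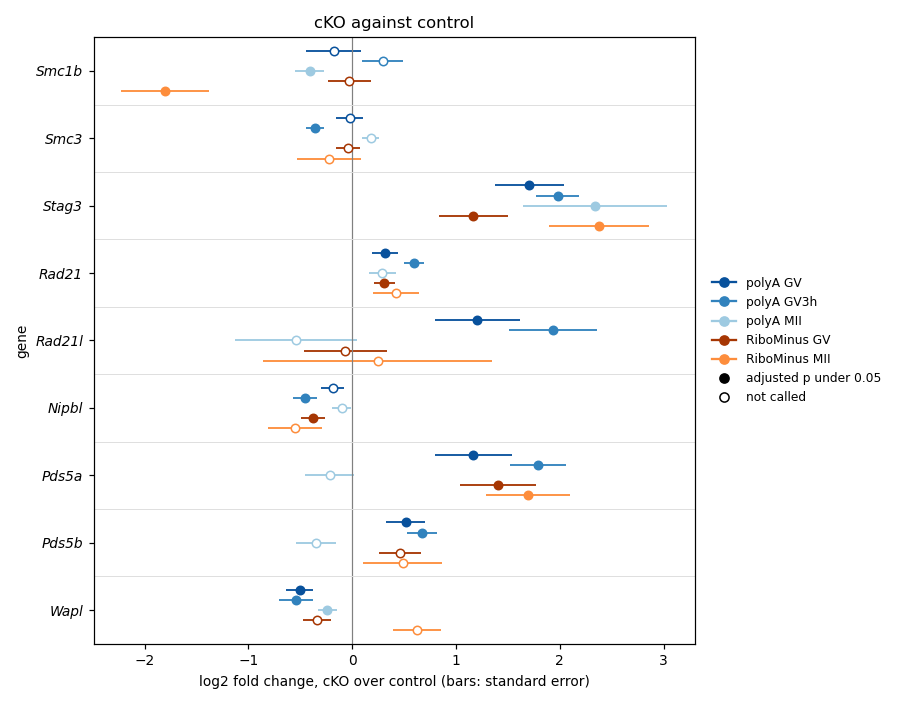
Log2 fold change of each tested member, cKO over control (horizontal axis, bars are standard errors), in the 5 comparisons of library type and stage, with filled points for an adjusted p under 0.05. Stag3 lies right of 0 and filled in all 5 comparisons, while Pds5a is filled and right of 0 in all but polyA MII.

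Stag3 (ENSMUSG00000036928, mm10 chr5:138280240-138312393, plus strand), the STAG subunit of meiotic rings whose promoter opens the set shown above, was the only member called higher in all 5 genotype comparisons by the oocyte-level test. In GV3h oocytes its level ran from 3.76 through a median of 5.87 to 7.87 CPM in control and from 13.9 through 24.1 to 38.5 CPM in cKO. Every cKO oocyte thus lay above every control oocyte. The change was 3.94-fold, 1.98 ± 0.21 on the log2 scale (SE), with an adjusted p of 1.7e-07 on oocytes and 0.00033 on counts summed per female. At polyA GV the values were 3.34, 5.51 and 10.4 CPM (lowest, median, highest) in control and 4.38, 22.5 and 42.1 CPM in cKO, and 12 of 15 cKO oocytes lay above the highest control. The 2 cKO females differed there, with means of 12.8 CPM for V857 and 25.4 CPM for V888, both above the control females V856 at 7.84 and V889 at 5.32 CPM. The fitted rise was 3.26-fold (log2 1.71 ± 0.33, adjusted p 0.00028). RiboMinus GV gave 2.36, 5.14 and 9.70 CPM in control and 6.0, 10.8 and 23.5 CPM in cKO, a 2.25-fold rise (log2 1.17 ± 0.33, adjusted p 0.012) with overlapping oocytes and female means that did not overlap. The call ended with counts summed per female at polyA GV (adjusted p 0.18) and RiboMinus GV (adjusted p 0.14), and without female V889 in the former (log2 1.39) or V1131 (0.83) or V1132 (0.99) in the latter. Without V888 the polyA GV value was 0.98.

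At MII the level of Stag3 in control polyA eggs was near the limit of detection. Of the 8 control eggs 4 had 0 counts, and the other values were 0.495, 2.27, 3.42 and 5.17 CPM. The 15 cKO eggs ran from 0.818 through 5.93 to 21.6 CPM, and 10 of them lay above the highest control. The rise was 5.06-fold (log2 2.34 ± 0.70, adjusted p 0.0091), but it was not called with counts summed per female (adjusted p 0.175), and with females left out in turn it lay between 1.40 and 2.92 on the log2 scale. Control female V853 stood apart, with a mean of 0.124 CPM over 4 eggs against 2.59 for V836 and 2.84 for V896, and without it the log2 change was 1.40 and not called, nor was it called without cKO female V897 (1.88). In RiboMinus MII eggs the 3 controls had 5.78, 12.1 and 3.12 CPM, and the 4 cKO eggs had 21.3 and 44.5 (V1166) and 34.6 and 39.5 CPM (V1167). The groups did not overlap, and the change of 5.20-fold (log2 2.38 ± 0.48, adjusted p 0.0041) rested on controls from 1 female. Without control egg V1145_3 the log2 change was 3.04.

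Pds5a (ENSMUSG00000029202, mm10 chr5:65605721-65698273, minus strand), one of the vertebrate PDS5 proteins that bind the ring at its kleisin, was higher in cKO in 4 of the 5 comparisons. At GV3h the lowest, median and highest values were 8.87, 12.5 and 19.2 CPM in control and 12.8, 49.5 and 71.9 CPM in cKO, and 10 of 11 cKO oocytes exceeded every control. The rise was 3.45-fold (log2 1.79 ± 0.27, adjusted p 8.9e-06, and 0.00042 on female sums). At polyA GV control oocytes spanned 9.96, 15.8 and 23.1 CPM and cKO oocytes 12.7, 32.6 and 79.2 CPM, a 2.25-fold rise (log2 1.17 ± 0.37, adjusted p 0.014). The cKO females differed: V857 averaged 65.0 CPM (53.7 to 79.2) and V888 25.1 CPM (12.7 to 54.0), against 22.2 and 12.5 CPM in the control females. The log2 change was 0.57 without V857 and 0.72 without V889, neither called, and 1.94 without V888. In RiboMinus GV oocytes the control values were 27.1, 46.2 and 98.1 CPM and the cKO values 24.1, 138 and 229 CPM, a 2.65-fold rise (log2 1.40 ± 0.37, adjusted p 0.0083). Here too one cKO female carried most of it, with means of 187 CPM for V1131 and 69.0 CPM for V1126 against 48.6 and 53.8 CPM in the control females, and without V1131 the log2 change was 0.44 and not called, as it was not without V1132 (1.32) or V1133 (1.47). RiboMinus MII eggs had 28.6, 8.96 and 17.0 CPM in control and 37.5, 74.3, 68.9 and 44.8 CPM in cKO, 2 groups that did not overlap (3.23-fold, log2 1.69 ± 0.40, adjusted p 0.010). With counts summed per female the adjusted p was 0.272 at polyA GV and 0.155 at RiboMinus GV. At polyA MII the genotypes had 5.08, 18.6 and 33.9 CPM (control) and 8.71, 14.9 and 29.3 CPM (cKO), with a log2 difference of −0.22 ± 0.24 and an adjusted p of 0.51.

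Its paralogue Pds5b (ENSMUSG00000034021, mm10 chr5:150673739-150810690, plus strand) moved less. At GV3h cKO oocytes averaged 51.91 ± 12.96 CPM (SD, n = 11) and controls 32.2 ± 3.54 CPM (n = 8), a 1.59-fold rise (adjusted p 0.00054, and 0.013 on female sums). At polyA GV the means were 55.3 ± 19.2 CPM (n = 15) and 37.9 ± 6.68 CPM (n = 7), a 1.43-fold rise (adjusted p 0.031) that was not called on female sums (adjusted p 0.40) or without V857, V856 or V889. In RiboMinus GV oocytes Pds5b was 98.8 ± 26.5 CPM in cKO and 71.38 ± 20.96 CPM in control with an adjusted p of 0.080.

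**Figure D3:**
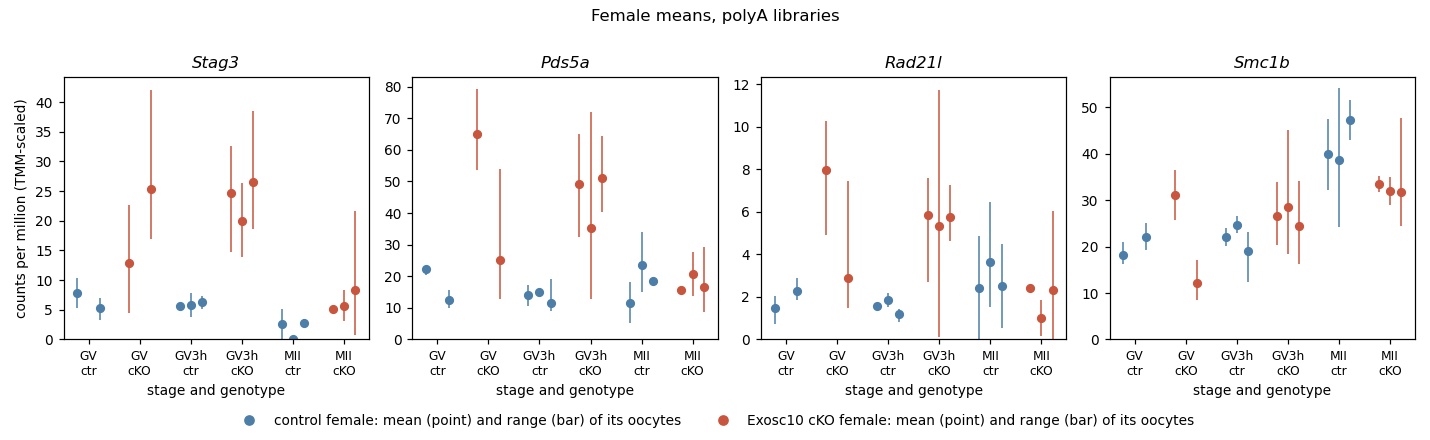
Mean CPM of each female (points, with bars for the lowest and highest oocyte) for Stag3, Pds5a, Rad21l and Smc1b in the polyA libraries, by stage and genotype. For Pds5a the 2 cKO females at GV lie at 65.0 and 25.1 CPM, while at GV3h all 3 cKO females lie above all 3 control females.

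Both tested kleisins were higher in cKO in polyA GV and GV3h oocytes, Rad21l by the larger factor. Rad21l (ENSMUSG00000074704, mm10 chr2:151645404-151668533, minus strand), the germline kleisin with the AT-rich window above, had at most 103 counts in a polyA oocyte, so counting error is large for it. At GV3h it ran from 0.825 through 1.46 to 2.18 CPM in control and from 0.128 through 6.13 to 11.7 CPM in cKO, where 10 of 11 oocytes exceeded every control and 1 lay below all of them. The rise was 3.83-fold (log2 1.94 ± 0.43, adjusted p 0.00059, and 0.0017 on female sums), and it was not called with female as a random block (adjusted p 0.16). At polyA GV the values were 0.722, 2.05 and 2.89 CPM in control and 1.48, 2.88 and 10.3 CPM in cKO (log2 1.21 ± 0.41, adjusted p 0.020), with means of 7.97 CPM in V857 and 2.91 CPM in V888. Without V857 the log2 change at polyA GV was 0.57 and not called. It was 2.0 without V888. It was also not called without V856 (0.94) or V889 (1.58), or on female sums (adjusted p 0.307). RiboMinus GV oocytes had overlapping values of 2.19, 4.95 and 11.9 CPM in control and 2.16, 6.18 and 10.2 CPM in cKO, with a log2 difference of −0.06 ± 0.40.

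Rad21 (ENSMUSG00000022314, mm10 chr15:51962240-51991747, minus strand), the kleisin of somatic rings, rose by a smaller factor. At GV3h it was 107 ± 13.5 CPM in cKO (SD, n = 11) and 69.8 ± 9.91 CPM in control (n = 8), a 1.51-fold rise (adjusted p 2.7e-05, and 0.015 on female sums). The rise was 1.25-fold at polyA GV (adjusted p 0.046) and 1.24-fold at RiboMinus GV (adjusted p 0.024), and neither was called on female sums (adjusted p 0.633 and 0.253). The first was also lost without V888, V856 or V889 (log2 0.24, 0.42 and 0.13) and the second without V1131, V1132 or V1133, where the log2 change stayed at 0.27 to 0.35. At MII the log2 difference was 0.29 ± 0.13 in polyA and 0.42 ± 0.22 in RiboMinus libraries, with adjusted p of 0.0771 and 0.195.

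Smc1b (ENSMUSG00000022432, mm10 chr15:85064689-85131964, minus strand), the meiotic SMC1 subunit, was called lower in cKO at MII in both library types and was not called at GV or GV3h. At GV3h its mean was 26.4 CPM in cKO and 21.3 CPM in control (log2 0.29). With library totals as the scale 7 members were called at GV3h, Smc1b among them. In RiboMinus MII eggs the 3 controls had 59.5, 39.0 and 61.5 CPM, and the 4 cKO eggs had 18.2 and 24.6 CPM (V1166) and 6.75 and 8.84 CPM (V1167). All 4 cKO eggs lay below every control egg, a 3.48-fold lower level (log2 −1.80 ± 0.42, adjusted p 0.0095), with the controls from 1 female. The log2 change was −2.72 without V1166 and −1.23 without V1167, both called. In polyA MII eggs the lowest, median and highest values were 24.3, 40.7 and 54.1 CPM in control and 24.5, 31.1 and 47.7 CPM in cKO. These ranges overlapped, and the 1.33-fold lower level (adjusted p 0.023) was not called on female sums (adjusted p 0.12), with library totals as the scale (adjusted p 0.090), or without V896 or V897. At polyA GV the pooled cKO oocytes ran from 8.43 through 13.7 to 36.4 CPM and the controls from 16.3 through 20.2 to 25.2 CPM (log2 −0.18 ± 0.27, adjusted p 0.62). That pooled value hid a split by female: V857 averaged 31.1 CPM and V888 12.1 CPM, above and below the control females at 18.1 and 22.1 CPM, so that the log2 change was 0.58 without V888 (adjusted p 0.0057) and −0.77 without V857 (adjusted p 0.00036). RiboMinus GV oocytes showed a log2 difference of −0.03 ± 0.21 (adjusted p 0.93).

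Smc3 (ENSMUSG00000024974, mm10 chr19:53600398-53645833, plus strand), the SMC subunit shared by meiotic and somatic rings, differed between genotypes by the oocyte-level test only at GV3h. Its mean there was 217 ± 28.9 CPM in cKO (SD, n = 11) and 274 ± 21.4 CPM in control (n = 8), 1.28-fold lower (adjusted p 0.0012, 0.011 on female sums, and 0.059 with library totals as the scale). Over the other 4 genotype comparisons its log2 difference was between −0.22 and 0.18. The lowest of these, at RiboMinus MII, was called at −0.92 without V1166 and was 0.26, not called, without V1167.

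Wapl (ENSMUSG00000041408, mm10 chr14:34673928-34747983, plus strand), which opens the ring and releases it from chromatin, was lower in cKO in the 3 polyA comparisons. At polyA GV control oocytes ran from 526.4 through 605 to 704 CPM and cKO oocytes from 234 through 420 to 701 CPM, and 14 of 15 cKO oocytes lay below the lowest control. The level was 1.42-fold lower (log2 −0.50 ± 0.13, adjusted p 0.0034). At GV3h it was 1.46-fold lower (adjusted p 0.0083) and at MII 1.18-fold lower (adjusted p 0.0494). The call was lost without V889 at GV (log2 −0.39), without V993 at GV3h (−0.28) and without any 1 of V841, V842, V897, V853 and V896 at MII (−0.03 without V853). None of the 3 calls was kept with counts summed per female (adjusted p 0.22, 0.060 and 0.29), and the last 2 were lost with library totals as the scale (adjusted p 0.0555 and 0.259). In RiboMinus MII eggs Wapl was 499, 474 and 574 CPM in control and 835, 980, 573 and 652 CPM in cKO, a log2 difference of 0.62 ± 0.23 with an adjusted p of 0.067.

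Nipbl (ENSMUSG00000022141, mm10 chr15:8290617-8444463, minus strand), which loads the ring together with MAU2, was lower in cKO at GV3h and at RiboMinus GV. At GV3h it was 202 ± 45.4 CPM in cKO (SD, n = 11) and 274 ± 20.5 CPM in control (n = 8), 1.37-fold lower (adjusted p 0.0020, and 0.038 on female sums). At RiboMinus GV it was 381.5 ± 57.1 CPM (n = 7) and 492.8 ± 70.4 CPM (n = 8), 1.3-fold lower (adjusted p 0.017, and 0.22 on female sums), and not called without V1131 (log2 −0.22), V1132 or V1133. RiboMinus MII control eggs had 658, 625.1 and 776 CPM and cKO eggs 550, 591, 337 and 313 CPM, groups that did not overlap, with an adjusted p of 0.14.

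With females as the unit, an exact two-sided permutation test of female means of log2(CPM + 1) could be made where 3 females stood on each side, and its smallest possible p is 0.1. At GV3h 7 of 9 members reached that smallest p (Smc3, Stag3, Rad21, Rad21l, Nipbl, Pds5a and Pds5b), and at polyA MII 4 of 9 did (Smc1b, Smc3, Stag3 and Rad21). No member can pass a threshold of 0.05 in this test. It was run on the members only, so the share of all genes that reach the smallest p is not known.

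**Figure D4:**
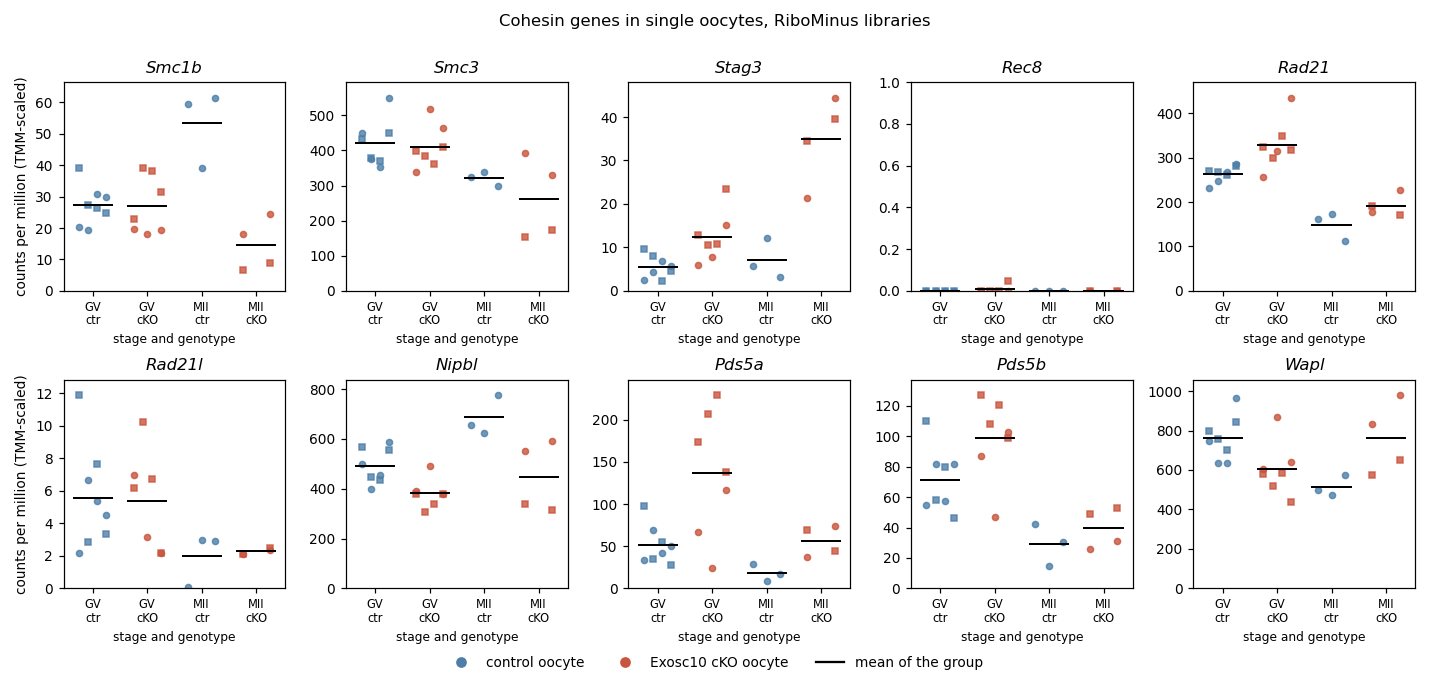
CPM (vertical axis, TMM-scaled, linear from 0) of the 10 cohesin genes in each RiboMinus oocyte, by stage and genotype, with marker shapes for the females of a group and a bar at the group mean. At MII the 4 cKO eggs lie below the 3 controls for Smc1b and above them for Stag3 and Pds5a.

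The second question was how cohesin RNA changed along maturation. Between GV and GV3h edgeR called 0 of 8 members tested in control oocytes (0.519% of 12716 genes called, 0.354% higher and 0.165% lower) and 0 of 9 in cKO (0.602% of 14280 genes, 0.371% higher and 0.231% lower), and DESeq2 also called 0 in each. At an unadjusted p under 0.05 there were 0 members in control and 3 in cKO (Nipbl, Smc1b and Smc3), beside 1338 of 12716 and 1731 of 14280 genes.

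From GV to MII in polyA libraries, 5 members rose in both genotypes and Stag3 fell. In control oocytes Rad21, Smc1b, Wapl, Smc3 and Nipbl rose and Stag3 fell, 6 of 9 members against 63.4% of 12561 genes called (30.1% higher and 33.3% lower). In cKO oocytes the same 5 rose, and Stag3, Pds5a, Rad21l and Pds5b fell, 9 of 9 against 74.8% of 13217 genes (33.1% higher and 41.7% lower). Wapl went from 526.4 to 704 CPM across GV control oocytes to 868 to 1669 CPM across MII control eggs, and no egg overlapped with a GV oocyte. Its rise was 1.99-fold in control (log2 0.99 ± 0.12, adjusted p 8.6e-07) and 2.42-fold in cKO (log2 1.28 ± 0.10, adjusted p 1.3e-13). Smc3 rose 1.85-fold in control and 2.15-fold in cKO, and Nipbl 1.80-fold and 1.93-fold, each without overlap between stages. Rad21 rose 2.03-fold in control and 2.0-fold in cKO. Each of these 8 rises was also called on female sums. Smc1b rose from 20.4 ± 3.32 CPM (SD, n = 7) to 41.1 ± 10.0 CPM (n = 8) in control, 2.0-fold (adjusted p 8.6e-05), and 1.71-fold in cKO (adjusted p 0.00061), where the call was lost on female sums (adjusted p 0.21), with library totals as the scale (adjusted p 0.13) and without V888 (log2 0.14, and 1.39 without V857).

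Stag3 fell 4.45-fold in polyA controls (log2 −2.15 ± 0.83, adjusted p 0.029) and 2.86-fold in polyA cKO (log2 −1.52 ± 0.31, adjusted p 4.2e-05). The fall in control was not called on female sums (adjusted p 0.19) or without V889, V856 (log2 −1.91) or V853 (−1.21), and the fall in cKO was called on female sums (adjusted p 0.020) and was not called without V888 (log2 −0.68). Pds5a fell 2.26-fold in cKO (38.4 ± 23.5 to 17.1 ± 5.79 CPM, SD, n = 15 each, adjusted p 0.00012, and 0.037 on female sums). In control its values were 16.7 ± 5.53 CPM at GV (n = 7) and 19.4 ± 8.35 CPM at MII (n = 8), with an adjusted p of 0.565. Pds5b fell 1.99-fold in cKO (adjusted p 8.0e-07, and 0.13 on female sums) and Rad21l 2.15-fold (adjusted p 0.015, and 0.12 on female sums). The fall of Pds5a was −0.55 without V857 and −1.82 without V888, and that of Rad21l −1.78 without V888. The falls of Pds5a and Pds5b were lost without V897 (log2 −1.04 and −0.44) and that of Rad21l without V897 or V857 (−0.43).

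In RiboMinus libraries the same stages gave another picture. In control oocytes Smc1b and Nipbl rose and Pds5a, Pds5b, Rad21, Wapl and Smc3 fell, 7 of 9 members against 30.9% of 16340 genes called (15% higher and 15.8% lower). In cKO oocytes Stag3 rose and Pds5b and Rad21 fell, 3 of 9 against 16.1% of 17234 genes (7.4% higher and 8.67% lower). Rad21 was 231 to 285 CPM in GV control oocytes and 163, 172 and 112 CPM in the 3 MII control eggs, 1.77-fold lower (log2 −0.82 ± 0.13, adjusted p 8.3e-05), and in cKO it was 1.70-fold lower (adjusted p 0.0091). Wapl was 636 to 966 CPM at GV and 499, 474 and 574 CPM at MII in control, 1.47-fold lower (adjusted p 0.0027), so that all 3 eggs lay below all 8 GV oocytes. Pds5a fell 2.81-fold and Pds5b 2.43-fold in control, while Pds5b fell 2.48-fold in cKO. Smc1b rose in control from 27.2 ± 6.24 CPM (SD, n = 8) to the 39.0 to 61.5 CPM given above, 1.96-fold (adjusted p 0.0010), and in cKO its log2 change was −0.86 ± 0.38 (adjusted p 0.13). That change in cKO was −0.31 without V1167 and was called without V1126 and without V1166, where it was −1.79. Stag3 rose in cKO from 6.0, 10.8 and 23.5 CPM (lowest, median, highest at GV) to 21.3, 44.5, 34.6 and 39.5 CPM at MII, 2.83-fold (adjusted p 0.010), the opposite direction to polyA libraries. The cKO calls ended on female sums (adjusted p 0.17 for Stag3, 0.17 for Rad21 and 0.16 for Pds5b) and without V1131, and those of Stag3 and Rad21 also without V1167 and that of Pds5b without V1166. In control Smc3 was not called without V1132, V1133 or either of the eggs V1145_2 and V1145_4, and the rise of Nipbl was not called without egg V1145_4 (log2 0.35).

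**Figure D5:**
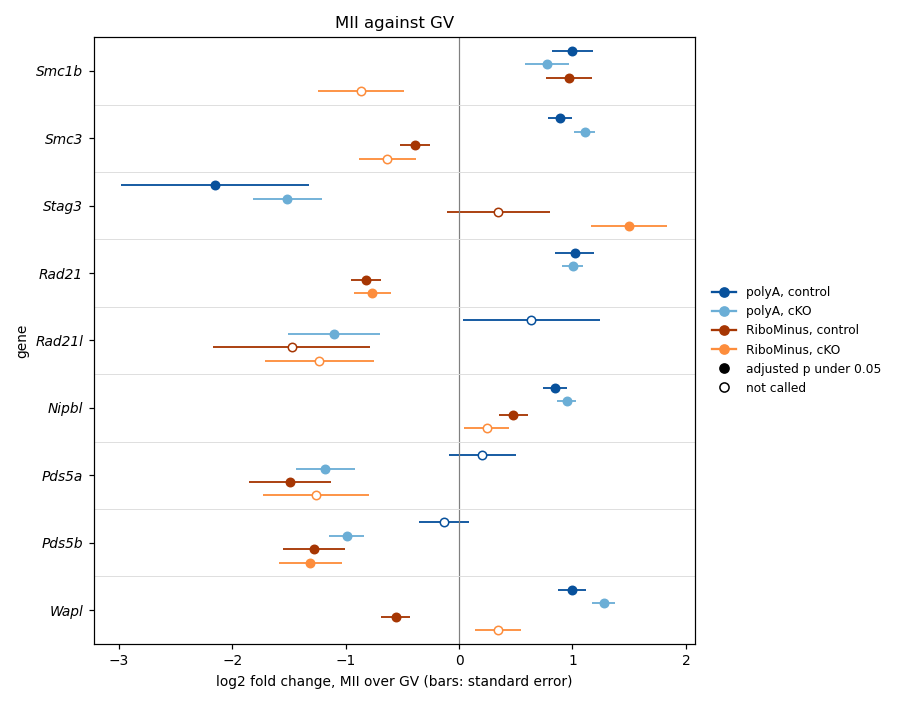
Log2 fold change of each tested member, MII over GV (horizontal axis, bars are standard errors), for both library types and genotypes, with filled points for an adjusted p under 0.05. Rad21, Smc3 and Wapl lie right of 0 in polyA libraries and, in RiboMinus control, left of 0.

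A term for the difference between library types tested these contrasts directly (polyA change minus RiboMinus change, different females in each). In control oocytes it was called for Rad21, Pds5a, Wapl, Smc3, Pds5b and Nipbl, 6 of 9 against 49.6% of 15910 genes (24.5% higher and 25.1% lower), and all 6 were positive. In cKO oocytes it was called for Rad21, Smc3, Smc1b, Wapl and Nipbl with positive values and for Stag3 with a negative one, 6 of 9 against 45.6% of 17208 genes (23% higher and 22.6% lower). For Rad21 it was 2.01 ± 0.25 in control (adjusted p 3.5e-08) and 2.01 ± 0.19 in cKO (adjusted p 1.1e-11), and for Stag3 in cKO it was −2.78 ± 0.55 (adjusted p 5.1e-05). On female sums the cKO values of Smc1b (adjusted p 0.129) and Nipbl (adjusted p 0.0960) were not called and the other 4 were. In cKO the value of Smc1b was 1.09 without V888 and 2.81 without V1166, that of Smc3 2.67 without V1166 and that of Stag3 −2.09 without V888. With library totals the share of all cKO calls that were higher went from 50.4% to 23.7%, and with DESeq2 size factors to 40.1%. The values of Nipbl in both genotypes and of Pds5b in control were not called with library totals as the scale (adjusted p 0.806, 0.142 and 0.0733), and that of Nipbl in control was lost without V853 or V856. The length of poly(A) tails was not measured, and a change in RNA amount and a change in capture by oligo(dT) cannot be told apart in the polyA libraries.

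The third question was whether maturation changed cohesin RNA differently in cKO. From GV to GV3h edgeR and DESeq2 each called 0 of 9 members for a genotype difference in the change (1 at an unadjusted p under 0.05, Smc3), with 0.0959% of 15635 genes called (0.0768% higher and 0.0192% lower). An unadjusted p under 0.05 in edgeR was found for 1419 of the 15635 genes. From GV to MII in polyA libraries the difference (cKO change minus control change) was called for Pds5a at −1.36 ± 0.43 on the log2 scale (adjusted p 0.027) and Pds5b at −0.83 ± 0.27 (adjusted p 0.032), 2 of 9 against 14.7% of 15546 genes (9.55% higher and 5.17% lower). The share of these calls that were higher was 64.9%, and 49.9% with DESeq2 size factors or 52.1% with library totals. For Pds5a this sets the GV cKO females at 65.0 and 25.1 CPM and the MII cKO females at 15.8, 20.7 and 16.7 CPM beside control females of 22.2 and 12.5 CPM at GV and 11.6, 23.6 and 18.6 CPM at MII. In RiboMinus libraries it was called for Smc1b at −1.85 ± 0.44 (adjusted p 0.0067) and Wapl at 0.89 ± 0.25 (adjusted p 0.018), 2 of 9 against 14.8% of 19110 genes (7.85% higher and 7% lower). Neither polyA difference was called with counts summed per female (adjusted p 0.368 and 0.665). With female as a random block 0 members were called in polyA and 1 in RiboMinus libraries. Without V888 that of Pds5a was −2.09. The differences of Pds5a and Pds5b were lost without V857, V889, V853 or V897, that of Smc1b without V1131 (−1.31, and −2.74 without V1166) and that of Wapl without V1131, V1133, V1166 or 1 control egg.

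Other genes of the pathway were read from 4 lists, chosen with earlier results of these data known. Of the 6 genes for protection and cleavage of cohesin, those called lower in cKO were 4 at polyA GV, 4 at GV3h, 3 at polyA MII, 4 at RiboMinus GV and 4 at RiboMinus MII, where 18.5%, 26.1%, 18.6%, 16.5% and 9.78% of all genes were. Sgo2b and Sgo2a, which encode shugoshin 2 proteins, and Sgo1 were called lower in all 5 by the oocyte-level test. With counts summed per female all 3 were called at GV3h (adjusted p 0.0017, 0.0028 and 0.0100) and Sgo2a at polyA MII (adjusted p 0.042), while the calls of Meikin and Pttg1 at GV3h (adjusted p 0.136 and 0.134) and of Sgo1 and Sgo2b at polyA MII (adjusted p 0.22 and 0.465) ended. At polyA GV and RiboMinus GV edgeR on female sums kept 0 of the 4 and 5 genes of this list called on oocytes, with adjusted p of 0.234 to 0.457 and 0.124 to 0.323, where 1 of 18004 and 3 of 20094 genes were called in all. At GV3h Sgo2b fell by 1.45, Sgo2a by 0.99, Meikin (a protector of centromeric cohesion in meiosis I) by 0.53 and Sgo1 by 0.51 on the log2 scale. In polyA GV oocytes Sgo2b fell by 1.34, Sgo2a by 0.78, Sgo1 by 0.42 and Espl1 (separase) by 0.25. In RiboMinus MII eggs Sgo2b fell by 2.13, Meikin by 1.26, Sgo2a by 0.93 and Sgo1 by 0.75. Sgo2a and Sgo2b are similar copies, so the authors' counting could have split or dropped reads between them. Pttg1 (securin, the separase inhibitor) was called higher at RiboMinus GV, by 1.53, and at GV3h. The median log2 change of this list was between −0.84 and −0.19 over the 5 comparisons, beside medians of 0.00085 to 0.13 over all genes.

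Of the 9 axis and synaptonemal complex genes, 7 or 8 were tested in each genotype comparison. Sycp3, a filament protein of the chromosome axis, was called higher in the 3 polyA comparisons and at RiboMinus GV, by 1.45 at polyA GV, 1.0803 at GV3h, 1.09 at polyA MII and 0.79 at RiboMinus GV. Hormad1, an axis protein, was higher by 4.15, 3.43 and 3.18 in the 3 polyA comparisons, from control means of 0.347, 0.467 and 1.02 CPM, and Hormad2 was higher by 1.24 at polyA GV, 1.304 at GV3h and 1.48 at RiboMinus GV. Tex12, a central element protein, was higher by 0.55 at polyA MII and 1.09 at RiboMinus MII. Syce1 was lower at GV3h (−1.38), and Syce2 was lower at RiboMinus MII (−0.79) and, with a smaller change, at polyA MII. Sycp1, which spans the synaptonemal complex, was lower, with log2 changes of −1.04 at polyA GV, −0.87 at polyA MII and −1.083 at RiboMinus GV. Of the 5 genes for the loader partner, acetylation and release, Esco1, an SMC3 acetyltransferase, was lower, with log2 changes of −0.75 at polyA GV, −0.84 at GV3h, −0.64 at polyA MII and −0.70 at RiboMinus GV. Its relative Esco2 was higher by 0.51 at polyA GV and 0.71 at GV3h. Hdac8, an SMC3 deacetylase, was higher by 0.88 at GV3h and 0.50 at RiboMinus GV, and Mau2 was lower at GV3h (−0.24). Cdca5 (sororin) was lower at polyA MII (−0.68) and higher at RiboMinus MII (0.69). Of the 3 somatic ring genes, Smc1a was higher by 0.72 in polyA MII eggs and lower at RiboMinus MII (−1.04) and RiboMinus GV (−0.53), while Stag2 was lower at polyA MII (−0.51). On female sums the calls kept in these 3 lists were those of Sycp3, Hormad1, Hormad2, Esco1, Esco2 and Hdac8 at GV3h and of Sycp3, Hormad1, Syce2, Esco1, Cdca5, Smc1a and Stag2 at polyA MII. None were kept at polyA GV or RiboMinus GV, where female sums left 1 and 3 calls among all genes, so the stages cannot be compared by these counts.

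Across the 10 group means of log2(CPM + 1), each centred within its library type, some members varied together, given as a description since the points share oocytes and scaling. Pds5a and Pds5b had a Pearson r of 0.879, Rad21l had 0.861 with Pds5b and 0.817 with Pds5a, and Smc3 had 0.817 with Wapl, 0.798 with Rad21 and 0.742 with Nipbl. Rad21 and Nipbl, both close to Smc3, had r of 0.326 with each other. Stag3 had r of −0.662 with Smc1b. Among 9342 genes the patterns closest to that of Smc1b were those of Taf7 (r = 0.965), Ccdc73 (0.959) and Elavl2 (0.950), and those closest to Stag3 were M6pr (0.985), Poldip2 (0.984) and Rbm3 (0.981).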

How the data were processed

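Single oocytes were sequenced in 64 polyA and 22 RiboMinus libraries, and each library has 1 deposited gene table. The submitters' processing notes name cutadapt 2.5, STAR 2.7.2a, HTSeq 0.9.1 and the mm10 build, without saying what each was used for. The deposited values are raw gene counts, and the authors' annotation release, strand setting and treatment of PCR duplicates are not given in the sources used here. Lines that name no gene held 8.43% to 17.0% of the reads in polyA files and 10.6% to 14.6% in RiboMinus files and were left out. A further 22 files of ribosomal RNA counts were not used.

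Each comparison was fitted with edgeR 4.0.16 (R 4.3.3) on the oocytes of the compared groups: filterByExpr, TMM factors, quasi-likelihood F test, two-sided, Benjamini-Hochberg adjustment over all genes tested, called at an adjusted p under 0.05. There were 16 comparisons: 5 of genotype, 6 of stage, 3 of genotype differences in a stage change and 2 of library differences. Several share groups, so their values are not independent. Levels are CPM on TMM-scaled library sizes, and log2(CPM + 1) was used for female means and patterns. Alternatives were DESeq2 1.42.0, its size factors, library totals, no filter on low counts, sums of counts over each female's oocytes, voom in limma 3.58.1 with the female as a random block, and leaving out each female or, in small groups, each oocyte. The scripts were tested on simulated data. Genes were matched by Ensembl ID to GENCODE M21 (mm10), and promoter windows come from RefSeq (GRCm38.p6). Named genes were all 10 members and, per list and comparison, at most 4 called genes with the largest log2 change. The members and lists were chosen with earlier results of these data known.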

Additional observations from a re-analysis of the deposited data

Results flagged for a closer look

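Rec8 in RiboMinus GV cKO oocytes was picked out because 1 of 7 oocytes stood far from the rest: a single count, 0.0479 CPM, against 0 in the others. Of the 55 groups of values examined this way, chance picks out about 1 in 20 where values are continuous. With all other oocytes at 0, any lone count is picked out, so that rate does not apply here.

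The change from GV to MII differed between genotypes, by a test of the difference (cKO change minus control change, log2), for 4 members. In polyA libraries it was −1.36 for Pds5a and −0.83 for Pds5b, and in RiboMinus libraries −1.85 for Smc1b and 0.89 for Wapl. Over all genes 14.7% were called in polyA and 14.8% in RiboMinus libraries. In polyA libraries 0 members were called with counts summed per female and 0 with the random block. In RiboMinus libraries 1 member was called with the random block and 0 without V1131.

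The change from GV to MII also differed between library types, by a test of the difference (polyA change minus RiboMinus change, log2). In control oocytes this was 2.01 for Rad21, 1.88 for Pds5a, 1.73 for Wapl, 1.45 for Smc3, 1.31 for Pds5b and 0.54 for Nipbl. In cKO oocytes it was 2.01 for Rad21, 1.98 for Smc3, 1.89 for Smc1b, 1.17 for Wapl, 0.94 for Nipbl and −2.78 for Stag3. Each library type used different females, and the RiboMinus MII controls came from 1 female. Over all genes 49.6% were called in control and 45.6% in cKO.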

How the results depend on the processing

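Of 143 member tests 65 were called, and calls kept numbered 64 with DESeq2, 64 with its size factors, 57 with library totals, 60 with no filter on low counts, 35 with counts summed per female (including fits with a single control sum at RiboMinus MII) and 47 with female as a random block, with 0 of these calls reversed. The uncalled Smc1b difference at polyA GV (−0.18, log2) was 0.58 without V888 and −0.77 without V857, and other uncalled values also changed sign with a female or egg left out. With library totals 3 members were called at polyA MII. Smc1b and Wapl lost their calls there, so other members gained one.

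Members called moved as follows; the cause was not tested. At polyA GV, 6 became 0 with female sums and 0 with the random block, and 0 to 8 with females left out. At polyA MII, 3 became 0 and 1, and 0 to 4. At RiboMinus GV, 4 became 0 and 0, and 0 to 6. At RiboMinus MII, 3 ranged from 3 to 5. For RiboMinus cKO from GV to MII, 3 became 5 with DESeq2 and 0 with female sums, and 0 to 6. For GV3h against GV in cKO the range was 0 to 2, and for its genotype difference 0 to 2. For the genotype difference from GV to MII, 2 became 1 with no filter, 0 with female sums and 0 with the random block in polyA (0 to 6 with females left out), and 0 with female sums, where 1 group is a single sum, and 1 with the random block in RiboMinus (0 to 2).

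Over all genes, calls with counts summed per female and with the random block were 1 and 1379 of 5908 at polyA GV, 3 and 2725 of 5774 at RiboMinus GV, 13 and 548 of 2287 for the polyA genotype difference, 0 and 802 of 2770 for RiboMinus cKO from GV to MII, 0 and 833 of 2837 for the RiboMinus genotype difference, and 2773 and 4842 of 7840 for the cKO library difference. Female sums gave 2522 of 4727 at polyA MII and, with 1 control sum, 1703 of 3949 at RiboMinus MII. Leaving out 1 female gave 2835 at polyA GV (V889), 2325 at polyA MII (V897), 103, 1407 and 2657 at RiboMinus GV (V1131, V1133, V1132), 3098 of 5042 for RiboMinus control (V1132) and 203 for RiboMinus cKO from GV to MII (V1131, with a loss of over 1.5 times also without V1166), 764 and 4355 for the polyA genotype difference (V889, V888) and 1367 and 1777 for the RiboMinus one (V1132, V1133). Leaving out 1 control egg gave 2328 to 2487 at RiboMinus MII. For GV3h against GV the ranges were 49 to 376 in control, 34 to 1548 in cKO and 1 to 604 for the genotype difference. For GV3h against GV, 66 became 147 with DESeq2, 2 and 27 in control, 86 became 223, 0 and 10 in cKO, and the genotype difference 15 became 67, 0 and 0. Where edgeR on female sums called 0 genes, an unadjusted p under 0.05 was found for 3654 (RiboMinus cKO from GV to MII), 3611 (RiboMinus genotype difference), 274 (cKO GV3h against GV) and 480 genes (its genotype difference, 294 with the random block). With no filter polyA cKO from GV to MII gave 15709 against 9887.

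Library totals moved the median of all genes by −0.65 to 0.17 (log2) and the share of higher calls by over 10 points in 9 of 16 comparisons, from 54.3% to 70.3% at polyA GV, 53.0% to 67.3% at GV3h, 50.5% to 61.9% at polyA MII, 56.2% to 66.3% at RiboMinus GV, 47.5% to 31.6% and 44.3% to 27.9% for polyA control and cKO from GV to MII, and 49.3% to 33.8% for the control library difference, beside the polyA genotype difference and the cKO library difference, whose values stand above. No paired analysis was possible because oocyte numbers are nested within females and no female is shared between compared groups. Low counts limit Rad21l, Stag3 in polyA MII eggs and Hormad1 in polyA controls.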
